A study of Mus musculus with 12 samples.

Results

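The proteasome genes described here are those whose mouse symbol begins with Psma, Psmb, Psmc, Psmd, Psme, Psmf or Psmg followed by a digit, with pseudogene symbols left out. The rule took 50 of the 17859 genes that carry a symbol, in a count table of 51912 genes. Of these 50 genes, 49 belong to the proteasome, its activators, its inhibitor or its assembly chaperones, and 1 (Psmc3ip, a meiotic recombination factor) matched by symbol alone. Liver RNA was measured by sequencing of the 3' ends of messenger RNA in 12 adult male mice on a C57BL/6NTac background. WT mice received corn oil or CITCO, an activator of human CAR. In the hCAR/hPXR line human CAR and PXR replace the mouse receptors, the Car KO/hPXR line has human PXR but no CAR of either species, and both lines received CITCO. CITCO was given at 10 mg/kg intraperitoneally, dosing was daily for 4 days, and livers were taken on day 5. Each of the 4 groups held 3 animals. Corn oil was analysed here in WT mice alone, so genotype and the response to CITCO cannot be told apart in the humanised lines.

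Library totals were 2341557, 1451203 and 1600691 counts in the WT corn oil group, 1577702, 1654436 and 1370330 in the WT CITCO group, 2012805, 1726056 and 1167008 in the hCAR/hPXR group and 1499487, 1255186 and 1172224 in the Car KO/hPXR group. Levels are given as CPM, counts per 1e6 counts of a TMM-scaled library. They were not divided by gene length, because a library of 3' ends yields its reads from the end of a transcript whatever its length. A count of 3, used as the floor, was worth between 1.34 and 2.505 CPM. Floors and the intervals of shares cover counting error only, since reads were not counted as single molecules.

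The proteasome degrades proteins that have been tagged with ubiquitin. Its core particle stacks rings of alpha and beta subunits, and beta subunits Psmb5, Psmb6 and Psmb7 hold the proteolytic sites. The regulatory particle binds the tagged protein through non-ATPase subunits and unfolds it with a ring of ATPases. Interferon induces Psmb8, Psmb9 and Psmb10, which replace the constitutive catalytic subunits in the immunoproteasome. In liver the immunoproteasome is known chiefly from immune cells and from inflamed tissue, and NRF1 (Nfe2l1) raises transcription of the subunit genes when proteasome activity is short.

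The mouse receptor genes were read as a check of the genotype labels. Nr1i2, the gene of mouse PXR, was counted at 89.1, 70.5 and 93.6 CPM in the WT corn oil libraries, 74.0, 78.1 and 88.6 in the WT CITCO libraries, 0, 0.579 and 0 in the hCAR/hPXR libraries and 1.27, 0 and 0 in the Car KO/hPXR libraries. Nr1i3, the gene of mouse CAR, was counted at 129, 73.3 and 129.8 CPM in the WT corn oil libraries, 119, 80.2 and 146 in the WT CITCO libraries, 1.04, 0 and 5.00 in the hCAR/hPXR libraries and 1.91, 1.67 and 4.11 in the Car KO/hPXR libraries. Cyp2b10, the classic target of CAR, was counted at 1.34, 0 and 0 CPM in the WT corn oil libraries, 1.297, 4.15 and 1.41 in the WT CITCO libraries, 146, 167 and 153 in the hCAR/hPXR libraries and 0.635, 0 and 2.46 in the Car KO/hPXR libraries. Both receptor genes were thus high in the 6 WT libraries and near 0 in the 6 humanised ones, and Cyp2b10 was high in the 3 hCAR/hPXR libraries alone. The liver label was read against 8 hepatocyte markers, all of which were tested. Their summed level was 32161, 28296 and 28244 CPM in the WT corn oil libraries, 27099.6, 33574 and 35226 in WT CITCO, 20593, 21853 and 36741 in hCAR/hPXR and 32532, 32919.6 and 29959.8 in Car KO/hPXR, and Alb (albumin) was the most abundant at a mean of 14261 CPM.

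The 50 genes together made up between 0.341% and 0.470% of a library's counts. Their summed level was 4322, 4614 and 4544 CPM in the WT corn oil libraries, 4214, 3904 and 4386 in WT CITCO, 4433, 4645 and 4377 in hCAR/hPXR and 4382, 4405 and 4496 in Car KO/hPXR. The lowest sum was in WT CITCO replicate 2, and the ranges of all 4 groups overlapped. Of the 50 genes, 47 passed the expression filter and were tested. The 3 that did not were close to absent in every group. Psma8, the testis form of an alpha subunit, had at most 4 counts, with counts of 0, 2 and 1 in WT corn oil, 1, 1 and 1 in WT CITCO, 4, 1 and 0 in hCAR/hPXR and 1, 1 and 1 in Car KO/hPXR. Psmb11, the catalytic subunit of the thymoproteasome, had 0 counts in 9 libraries, 1 in WT CITCO replicate 1, 1 in hCAR/hPXR replicate 2 and 2 in Car KO/hPXR replicate 2. Psmc3ip had counts of 1, 1 and 0 in WT corn oil, 0 in each WT CITCO library, 0, 3 and 0 in hCAR/hPXR and 0, 1 and 1 in Car KO/hPXR. All 3 lay at or close to the floor, so no fold change is given for them.

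Within classes the levels were far from equal. Among the alpha ring genes the mean over 12 libraries ran from 26.2 CPM for Psma1 to 202 for Psma7, leaving aside Psma8. The 4 beta genes without a catalytic site ran from 17.7 CPM (Psmb2) to 214 (Psmb4). The 6 ATPases of the base ran from 39.5 CPM (Psmc5) to 263 (Psmc1), and the 11 non-ATPase subunits from 32.7 CPM (Psmd14) to 295 (Psmd4). Subunits that stand in the complex in equal number therefore differed several-fold in counts, although levels of different genes also depend on how their 3' ends are annotated. Assembly chaperones were counted at lower levels, from 5.71 CPM for Psmg4 to 44.7 for Psmd9. Replicates of the 47 genes tested lay close together, with a median within-group SD of 0.253 on the log2 scale against 0.364 over all 8594 genes tested. The proteasome genes also had more counts, with a median mean count of 106 against 33.1. The steadiest gene was Psma2, with a within-group SD of 0.0821 on that scale, followed by Psmc1 at 0.0911. Apart from Psme2b, the most variable was Psmg4 at 0.616.

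**Figure D1:**
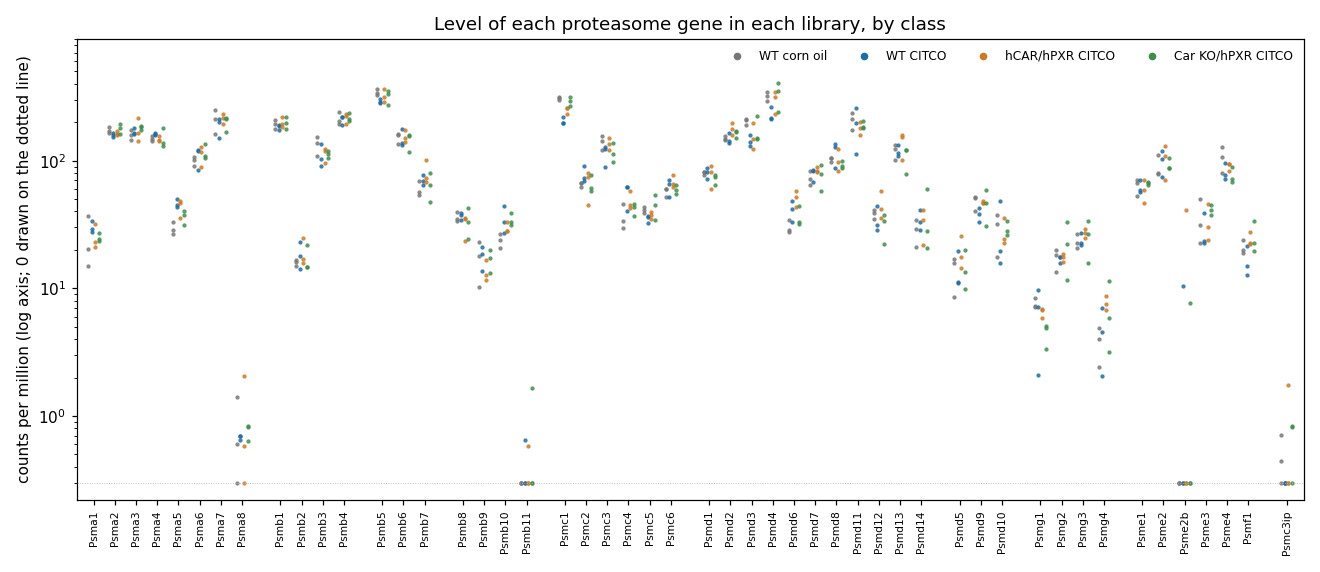
Level of each of the 50 genes (x axis, in classes) in each of 12 libraries (points, coloured by group), in CPM on a log axis, with 0 drawn on the dotted line. Points of the 4 groups interleave for most genes, and for Psmc1 the WT CITCO libraries (198, 221 and 198) sit below the other 9.

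Over the 4 groups, 0 of the 47 proteasome genes had an adjusted p under 0.05 by edgeR's quasi-likelihood F test, where 1.42% of all genes tested passed. At an unadjusted p under 0.05 there were 4 (Psmc1, Psmd6, Psma5 and Psme2b), where 11.6% of all genes passed. DESeq2 called 1 gene, Psmc1, with 3 at the unadjusted threshold, and limma on the deposited log2-like values called 0, with 5 unadjusted. Both tools were run on all 50 genes, of which DESeq2 gave an adjusted p to 37. Over all genes DESeq2 called 225 of the 3665 it adjusted (864 unadjusted) and limma 108 (1504). The smallest adjusted p by edgeR was 0.0991, for Psmc1. The proteasome as a whole therefore showed no more calls than genes at large, and the 4 unadjusted genes (8.51% of 47) were below the share of all genes.

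WT CITCO against WT corn oil asked what CITCO does to these genes in mice with the mouse receptors. By edgeR 0 of 47 genes passed the adjusted threshold, against 0.233% of all genes, and 6 had an unadjusted p under 0.05, against 9.13%. DESeq2 called 1 of the 46 to which it gave an adjusted p (Psmc1, 5 unadjusted) and limma 0 (6 unadjusted). Over all genes DESeq2 called 48 of the 9006 it adjusted (680 unadjusted) and limma 22 (1215). The 6 genes were Psmc1 at a log2 fold change of -0.58 (SE 0.14, adjusted p = 0.118), Psmd3 at -0.52 (SE 0.19, adjusted p = 0.376), Psmd4 at -0.49 (SE 0.19, adjusted p = 0.404), Psma5 at 0.64 (SE 0.20, adjusted p = 0.282), Psmc4 at 0.57 (SE 0.23, adjusted p = 0.428) and Psmb10 at 0.56 (SE 0.23, adjusted p = 0.462). Psmd3, Psmd4 and Psmc4 were named after their values were seen. Opposite signs occurred within the regulatory particle, since the ATPase Psmc4 was higher with CITCO while the ATPase Psmc1 and the scaffold subunit Psmd3 were lower. The libraries of both groups did not overlap for 10 of 47 genes, 4 higher and 6 lower, which is 21.3% of them against 14.7% of all genes. The median log2 fold change of the 47 genes was -0.01 and that of all genes -0.00. The 95% interval lay inside a 1.5-fold change in either direction for 17 of the 47 genes and inside a 2-fold change for 41.

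hCAR/hPXR CITCO against WT CITCO compared genotypes under the same dose. By edgeR 0 of 47 genes were called, against 0.407% of all genes, and 0 had an unadjusted p under 0.05, against 8.81%. DESeq2 called 0 of the 36 it adjusted (1 unadjusted) and limma 0 (0 unadjusted). Over all genes DESeq2 called 74 of the 3309 it adjusted (667 unadjusted) and limma 37 (1227). In hCAR/hPXR mice 33 genes were higher and 14 lower, with a median of 0.07 on the log2 scale against 0.01 for all genes, and 23 of 47 intervals inside a 1.5-fold change. The libraries did not overlap for 4 genes (Psmc1, Psmd9 and Psmf1 higher, Psma4 lower), against 13.6% of all genes. Psmf1 encodes the proteasome inhibitor PI31 and was at 14.9, 21.4 and 12.7 CPM in WT CITCO and 22.3, 27.8 and 22.5 in hCAR/hPXR. It had the smallest p of the 47 genes here, with adjusted p = 0.586 by edgeR.

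Car KO/hPXR CITCO against WT CITCO again gave 0 of 47 genes called by edgeR, against 0.256% of all genes, and 3 with an unadjusted p under 0.05, against 9.3%. DESeq2 called 1 of the 37 it adjusted (Psmc1, 2 unadjusted) and limma 0 (3 unadjusted). Over all genes DESeq2 called 75 of the 3665 it adjusted (701 unadjusted) and limma 33 (1372). The 3 genes were Psmc1 at a log2 fold change of 0.51 (SE 0.14, adjusted p = 0.143), the ubiquitin receptor Psmd4 at 0.53 (SE 0.19, adjusted p = 0.345) and Psmf1 at 0.62 (SE 0.28, adjusted p = 0.515), of which Psmd4 and Psmf1 were named after their values were seen. Psmf1 stood at 19.7, 22.5 and 33.7 CPM in Car KO/hPXR, and its fold change was 0.36 without replicate 3 of that group. For Psmd4 the Car KO/hPXR libraries (239, 351 and 406 CPM) overlapped the WT CITCO libraries (261, 214 and 210.4). The libraries did not overlap for 3 genes (Psmc1 higher, Psma1 and Psma5 lower), against 14.2% of all genes. The median was 0.04 against -0.00, and 22 intervals of 47 lay inside a 1.5-fold change. These comparisons and the one of WT CITCO with corn oil share the 3 WT CITCO libraries, so a WT CITCO library that is low or high moves all of them at once.

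**Figure D2:**
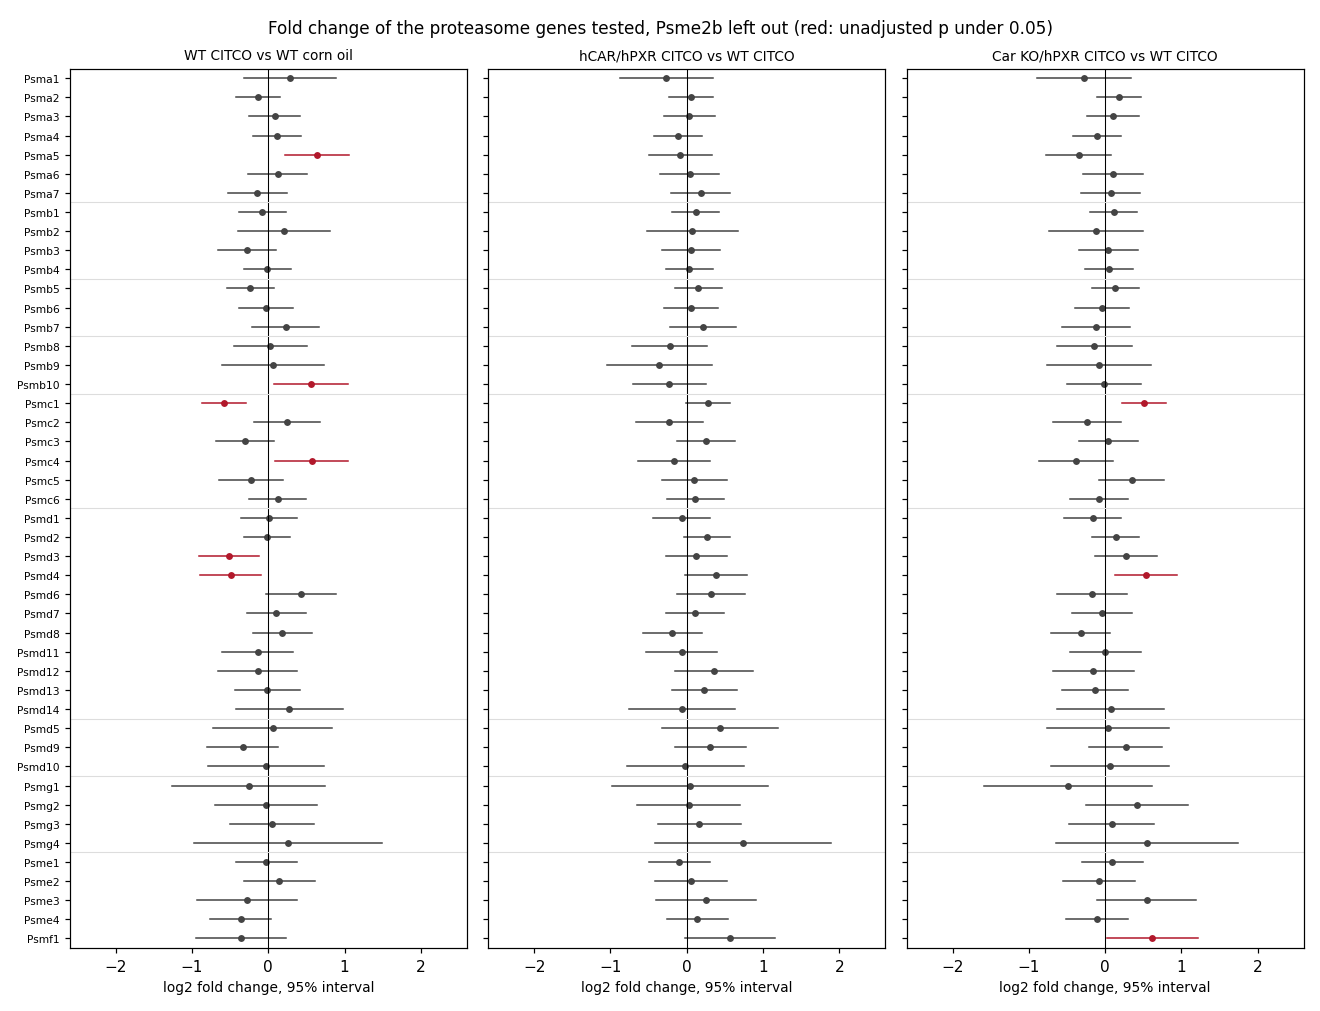
Log2 fold change (point) with its 95% interval (line) for 46 of the 47 proteasome genes tested, in 3 comparisons; Psme2b is left out because its counts lie in 3 libraries only. Genes in red had an unadjusted p under 0.05 (6 genes with Psmc1 at -0.58 on the left, 0 in the middle, 3 on the right), and none passed after adjustment by edgeR.

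Between the humanised lines, the comparison of hCAR/hPXR with Car KO/hPXR mice asked what human CAR adds under CITCO. By edgeR 0 of 47 genes were called, against 0.582% of all genes, and 1 (Psmd6) had an unadjusted p under 0.05, against 10.6%. DESeq2 called 0 of 39 (0 unadjusted) and limma 0 (1 unadjusted). Over all genes DESeq2 called 120 of the 4021 it adjusted (798 unadjusted) and limma 57 (1450). Libraries did not overlap for 2 genes (Psmg1 higher and Psmc1 lower in hCAR/hPXR), against 15.1% of all genes, and the median log2 fold change was 0.02 against 0.01. Against WT corn oil, hCAR/hPXR CITCO gave 0 calls by edgeR, where 0.989% of all genes passed, and 5 genes with an unadjusted p under 0.05 (Psmd6, Psme2b, Psma5, Psmc1 and Psmb7), where 10.9% passed. DESeq2 called 0 of 36 (4 unadjusted) and limma 0 (4 unadjusted). Over all genes DESeq2 called 154 of the 3309 it adjusted (831 unadjusted) and limma 75 (1309). Libraries did not overlap for 8 genes, 6 higher and 2 lower, against 16.2% of all genes. The median was 0.02 against 0.01.

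Car KO/hPXR CITCO against WT corn oil had the fewest differences among all genes tested, and 0 of 47 proteasome genes were called by edgeR, against 0.0465% of all genes. The unadjusted threshold was passed by 2, Psme4 and Psmb10, against 5.6%. DESeq2 called 0 of 44 (1 unadjusted) and limma 0 (2 unadjusted). Over all genes DESeq2 called 12 of the 5803 it adjusted (398 unadjusted) and limma 4 (917). Psme4, which encodes the activator PA200 and was named after its values were seen, was at 80.6, 129 and 107 CPM in WT corn oil and 68.6, 88.5 and 71.5 in Car KO/hPXR, with a log2 fold change of -0.47 (SE 0.19, adjusted p = 0.802). Its libraries overlapped, and without WT corn oil replicate 2, the highest of them, the fold change was -0.30. For 4 genes they did not (Psma3 and Psmb10 higher, Psmd1 and Psmg1 lower), against 11.6% of all genes. The median was 0.04 against 0.00.

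The alpha ring forms the gate through which a substrate enters the core. Its 8 genes summed to 817, 880.0 and 836 CPM in WT corn oil, 848, 827 and 910.4 in WT CITCO, 855, 850.4 and 938 in hCAR/hPXR and 862, 927 and 872 in Car KO/hPXR, with ranges that overlap in all 4 groups. Psma5 had the smallest p of the class and was counted at 26.9, 28.9 and 33.2 CPM in the WT corn oil libraries, 44.8, 43.6 and 49.95 in the WT CITCO libraries, 48.2, 35.9 and 46.7 in the hCAR/hPXR libraries and 31.1, 40.1 and 37.8 in the Car KO/hPXR libraries. Its 3 WT CITCO libraries and its 3 hCAR/hPXR libraries lay above all corn oil libraries, while Car KO/hPXR lay below WT CITCO and overlapped the other groups. The log2 fold change against corn oil was 0.64 (SE 0.20, adjusted p = 0.282) in WT mice and 0.56 (SE 0.20, adjusted p = 0.275) in hCAR/hPXR mice, and neither passed by edgeR. The 7 alpha genes tested had a median log2 fold change of 0.11 between WT CITCO and corn oil, 5 being higher and 2 lower. Of these 7, 1 (Psma5) had an unadjusted p under 0.05 by edgeR, where 9.13% of all genes did. RSEM had split reads between Psma5 and the processed pseudogene Gm12989 in 9 libraries, and the pseudogene held at most 6 counts in a library.

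Among the beta genes without a catalytic site, Psmb3 had the smallest p. It was counted at 109.7, 154 and 137 CPM in the WT corn oil libraries, 90.8, 102 and 135 in the WT CITCO libraries, 124, 119.8 and 95.9 in the hCAR/hPXR libraries and 105, 114 and 119.9 in the Car KO/hPXR libraries. The groups overlapped, WT corn oil replicate 2 being the highest and WT CITCO replicate 1 the lowest, and the log2 fold change between those groups was -0.28 (SE 0.18, adjusted p = 0.685). The 4 genes of this class kept their summed level within 484 to 603 CPM over the 12 libraries.

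The constitutive catalytic genes were described in full, because their exchange for the inducible ones defines the immunoproteasome. Psmb5, the chymotrypsin-like subunit (chromosome 14, 54614119 to 54618022, minus strand, GRCm38), was counted at 329, 338 and 363 CPM in the WT corn oil libraries, 290.0, 281 and 303 in the WT CITCO libraries, 289, 364 and 316 in the hCAR/hPXR libraries and 335, 271 and 349.9 in the Car KO/hPXR libraries. Its WT CITCO libraries lay below the 3 corn oil libraries, and the humanised groups spanned both, with a log2 fold change of -0.24 (SE 0.15, adjusted p = 0.669) between the WT groups. Psmb6, the caspase-like subunit (chromosome 11, 70525367 to 70527858, plus strand), was counted at 158, 136 and 161 CPM in the WT corn oil libraries, 138, 133 and 176 in the WT CITCO libraries, 140.4, 175 and 151 in the hCAR/hPXR libraries and 157, 116 and 160.2 in the Car KO/hPXR libraries. All 4 groups overlapped, and the 4-group test gave adjusted p = 0.981 by edgeR. Psmb7, the trypsin-like subunit (chromosome 2, 38588036 to 38644087, minus strand), was counted at 56.9, 53.6 and 68.8 CPM in the WT corn oil libraries, 64.9, 76.7 and 68.9 in the WT CITCO libraries, 73.1, 102 and 68.4 in the hCAR/hPXR libraries and 80.1, 47.6 and 64.9 in the Car KO/hPXR libraries. Its highest value was in hCAR/hPXR replicate 2, and the log2 fold change of hCAR/hPXR against corn oil was 0.44 (SE 0.21, adjusted p = 0.449), falling to 0.24 without that library. Counts of Psmb7 were not whole in any of the 12 libraries, and in 11 of them the fraction was completed by that of Nek6, whose exons overlap it on the opposite strand.

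The inducible catalytic genes were present at lower levels in every library. Psmb8 (chromosome 17, 34197721 to 34201454, plus strand), the inducible counterpart of Psmb5, was counted at 39.4, 33.8 and 35.0 CPM in the WT corn oil libraries, 37.6, 38.7 and 34.5 in the WT CITCO libraries, 35.2, 35.3 and 23.4 in the hCAR/hPXR libraries and 42.6, 24.2 and 32.9 in the Car KO/hPXR libraries. The WT groups lay within 33.8 to 39.4 CPM, while the humanised groups reached further down and, in Car KO/hPXR replicate 1, further up. Psmb9 (chromosome 17, 34181987 to 34187764, minus strand), the counterpart of Psmb6, was counted at 17.9, 23.3 and 10.3 CPM in the WT corn oil libraries, 13.6, 18.7 and 21.1 in the WT CITCO libraries, 16.6, 12.7 and 11.68 in the hCAR/hPXR libraries and 17.2, 20.04 and 13.1 in the Car KO/hPXR libraries. All groups overlapped for Psmb9, which at a mean of 25.2 counts was the least precise of the 3. Psmb10 (chromosome 8, 105935735 to 105938444, minus strand), the counterpart of Psmb7, was counted at 20.6, 24.0 and 26.6 CPM in the WT corn oil libraries, 27.2, 33.2 and 44.3 in the WT CITCO libraries, 28.0, 28.3 and 33.4 in the hCAR/hPXR libraries and 33.0, 39.2 and 31.2 in the Car KO/hPXR libraries. Its 9 libraries from CITCO-treated mice all lay above the 3 corn oil libraries, by a margin smaller than the counting error. The closest were WT CITCO replicate 1 (42 counts, 27.2 CPM) and corn oil replicate 3 (44 counts, 26.6 CPM). The share of all genes with such a split was not computed. The log2 fold change of Psmb10 against corn oil was 0.56 (SE 0.23, adjusted p = 0.462) in WT, 0.33 (SE 0.23, adjusted p = 0.676) in hCAR/hPXR and 0.54 (SE 0.23, adjusted p = 0.839) in Car KO/hPXR mice, and none passed by edgeR. Without WT CITCO replicate 3, its highest library, the value in WT mice was 0.36. These 3 comparisons share the corn oil libraries, so the common direction is not 3 separate observations. For Psmb8 and Psmb9 the same comparisons gave 0.03 and 0.06 in WT, -0.19 and -0.30 in hCAR/hPXR, and -0.11 and -0.02 in Car KO/hPXR mice. Against corn oil the 3 genes had the same sign in WT mice alone. Against WT CITCO all 3 were lower in hCAR/hPXR (median log2 fold change -0.23) and in Car KO/hPXR (-0.08), and between the humanised lines all 3 were lower in the hCAR/hPXR group (-0.21). None of the differences from WT CITCO or between the humanised lines had an unadjusted p under 0.05 by edgeR.

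As a share of the counts of all 6 catalytic genes, Psmb8, Psmb9 and Psmb10 made up 12.5, 13.3 and 10.8% in the WT corn oil libraries, 13.7, 15.6 and 15.4% in WT CITCO, 13.7, 10.6 and 11.3% in hCAR/hPXR and 13.9, 16.1 and 11.8% in Car KO/hPXR. The group means were 12.2% ± 1.29, 14.9% ± 1.02, 11.9% ± 1.61 and 13.96% ± 2.13 (SD, n = 3 each). The WT CITCO libraries lay above the corn oil libraries and, by a margin smaller than the counting error, above the hCAR/hPXR libraries, while the Car KO/hPXR libraries overlapped each of the other groups. The 95% Wilson interval of the lowest WT CITCO library, 11.6% to 16.2%, held all 3 corn oil values but that of replicate 3. No test was run on the share. The log2 ratio of Psmb8 to Psmb5 was -3.05, -3.29 and -3.35 in corn oil, -2.92, -2.84 and -3.11 in WT CITCO, -3.02, -3.35 and -3.71 in hCAR/hPXR and -2.96, -3.44 and -3.38 in Car KO/hPXR. The ratio of Psmb9 to Psmb6 ran from -3.90 to -2.49 over the 12 libraries, and that of Psmb10 to Psmb7 from -1.82 to -0.27. The constitutive gene was therefore the more abundant member of each pair in all 12 libraries.

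**Figure D3:**
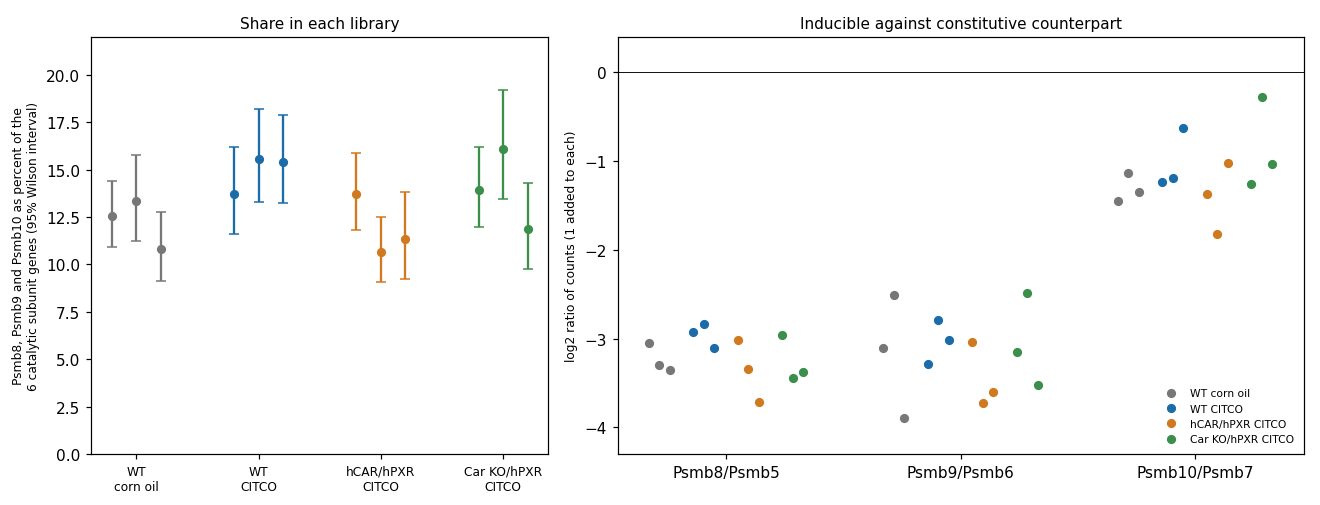
Left, counts of Psmb8, Psmb9 and Psmb10 as a percentage of the counts of all 6 catalytic genes, 1 point per library with its 95% Wilson interval, by group. Right, log2 ratio of each inducible gene to its constitutive counterpart (1 added to each count), 1 point per library, all below 0; the shares run from 10.6% to 16.1%.

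The sequence before the start of the catalytic genes Psmb5, Psmb6 and Psmb10 and of Psmc1 is shown because the description of levels turns on these genes. Of the 250 bases upstream of the RefSeq start (GRCm38.p6), those outside annotated exons are printed 5' to 3' for Psmb5 (chr14:54618023-54618245, minus strand), Psmb6 (chr11:70525107-70525356, plus strand), Psmb10 (chr8:105938445-105938642, minus strand) and Psmc1 (chr12:100109952-100110153, plus strand), with motif matches in capitals. The motifs, searched on both strands, were TGACNNNGC (core of the antioxidant response element, the kind of site that NRF1 and NRF2 bind), GAAANNGAA (core of the interferon-stimulated response element) and CCAAT.
Psmb5: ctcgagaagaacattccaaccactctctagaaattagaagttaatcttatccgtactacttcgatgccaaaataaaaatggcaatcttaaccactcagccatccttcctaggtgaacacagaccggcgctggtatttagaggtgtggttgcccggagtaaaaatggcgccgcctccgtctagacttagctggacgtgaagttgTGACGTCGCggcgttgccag
Psmb6: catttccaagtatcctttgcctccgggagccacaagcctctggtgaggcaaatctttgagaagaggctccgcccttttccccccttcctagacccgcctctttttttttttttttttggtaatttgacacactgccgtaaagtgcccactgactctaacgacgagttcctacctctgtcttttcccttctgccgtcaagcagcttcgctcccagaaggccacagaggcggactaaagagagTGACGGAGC
Psmb10: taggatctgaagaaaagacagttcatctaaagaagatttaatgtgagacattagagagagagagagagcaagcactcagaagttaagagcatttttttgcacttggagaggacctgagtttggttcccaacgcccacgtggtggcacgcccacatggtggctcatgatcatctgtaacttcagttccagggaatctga
Psmc1: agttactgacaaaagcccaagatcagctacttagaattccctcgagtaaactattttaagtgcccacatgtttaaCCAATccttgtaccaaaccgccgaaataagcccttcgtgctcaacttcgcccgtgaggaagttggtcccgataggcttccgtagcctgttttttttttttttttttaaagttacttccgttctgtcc
The capitals mark the antioxidant response element core at -47 to -39 of the Psmb5 start and at -9 to -1 of the Psmb6 start, and a CCAAT at -175 to -171 of the Psmc1 start, while the Psmb10 window held none of the 3 motifs. A window was found for 42 of the 50 genes, some with more than 1 start, giving 45 windows. The antioxidant response element core was in 5 of the 45 (11.1%) against 10.2% of 32851 windows over all genes, in Psmb5, Psmb6, Psmc6, Psmd12 and Psmd9. The interferon-stimulated core was in 3 (6.67%) against 7.13%, in Psmb3, Psmd4 and Psmd9. CCAAT was in 15 (33.3%) against 33.8%. All 3 shares lay close to those of genes at large. The windows of Psmb8 and Psmb9 lie within annotated exons and are not printed. No window was found for Psma8, Psmb1, Psmb2, Psmb7, Psmc3, Psmd3, Psmd7 and Psmg2.

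The ATPase ring of the regulatory particle held the gene with the smallest p of all 47. Psmc1, the ATPase Rpt2 (chromosome 12, 100110154 to 100123405, plus strand), was counted at 308, 299 and 314 CPM in the WT corn oil libraries, 198, 221 and 198 in the WT CITCO libraries, 259, 257 and 230.2 in the hCAR/hPXR libraries and 267, 317 and 293 in the Car KO/hPXR libraries. Its 3 WT CITCO libraries were below each of the other 9 libraries, hCAR/hPXR lay between WT CITCO and the rest, and Car KO/hPXR overlapped corn oil. The means were 307 ± 7.53 CPM, 206 ± 12.96, 249 ± 16.1 and 293 ± 24.9 (SD, n = 3 each, in the same order). The 4-group test gave adjusted p = 0.0991 by edgeR. The log2 fold change of WT CITCO against corn oil was -0.58 (95% interval -0.86 to -0.29, adjusted p = 0.118), that of Car KO/hPXR against WT CITCO 0.51 (0.22 to 0.80, adjusted p = 0.143) and that of hCAR/hPXR against corn oil -0.30 (-0.59 to -0.02, adjusted p = 0.428). DESeq2 called Psmc1 over the 4 groups (adjusted p = 0.00101), in WT CITCO against corn oil (adjusted p = 0.00427) and in Car KO/hPXR against WT CITCO (adjusted p = 0.00901). Over all alternatives the adjusted p of Psmc1 ran from 0.00101 to 0.313 for the 4 groups, from 0.00427 to 0.447 for WT CITCO against corn oil and from 0.00901 to 0.453 for Car KO/hPXR against WT CITCO.

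The 6 ATPases together summed to 642, 648 and 655 CPM in WT corn oil, 559, 529 and 559 in WT CITCO, 617, 601 and 596 in hCAR/hPXR and 619, 638 and 605 in Car KO/hPXR. The WT CITCO sums were below the other 9. Psmc1 makes up a large part of this sum, and the other ATPases did not all lie that way. Between WT CITCO and corn oil 3 of the 6 were higher and 3 lower, with Psmc4 at 0.57 and a class median of -0.05. Psmc4, the ATPase Rpt3, was counted at 46.1, 33.8 and 29.6 CPM in the WT corn oil libraries, 62.3, 40.1 and 61.9 in the WT CITCO libraries, 58.0, 42.2 and 45.0 in the hCAR/hPXR libraries and 43.2, 45.9 and 37.0 in the Car KO/hPXR libraries, so that WT CITCO replicate 2 lay among the corn oil libraries.

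**Figure D4:**
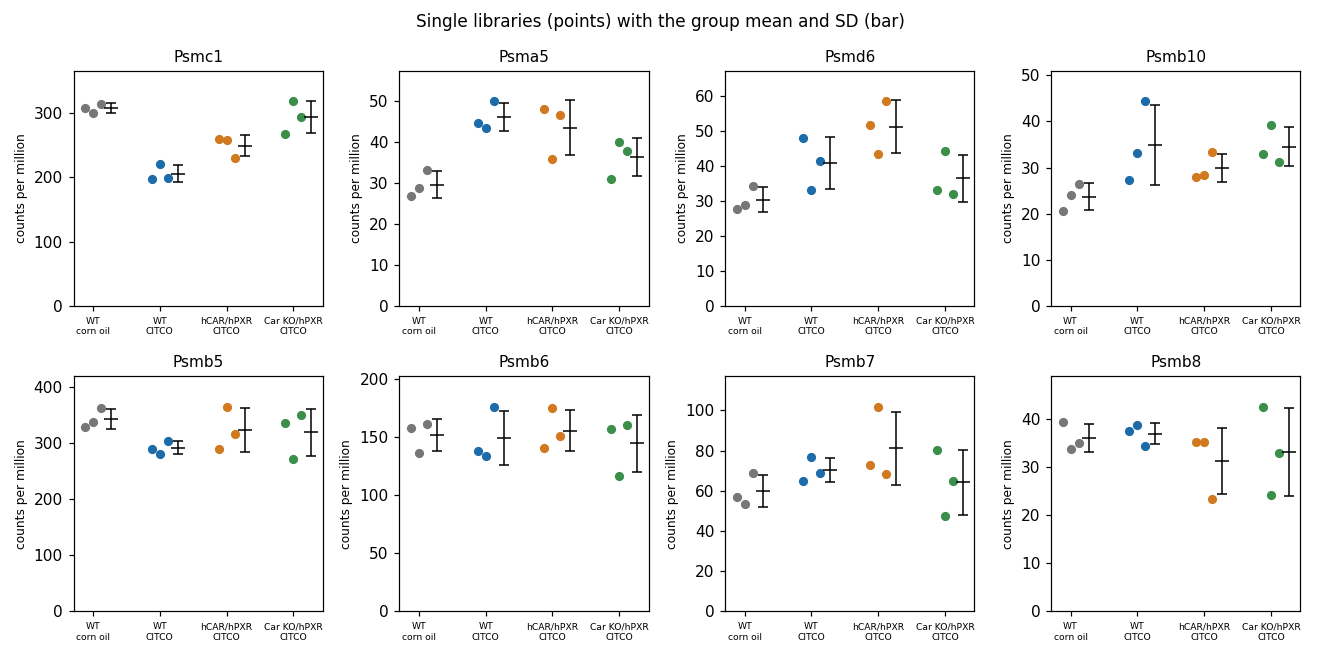
CPM of 8 proteasome genes in single libraries (points, coloured by group) with the group mean and SD (bar, n = 3), each panel on its own linear axis from 0. Psmc1 is lowest in the 3 WT CITCO libraries (mean 206), and Psma5, Psmd6 and Psmb10 are lowest on average in WT corn oil (means 29.7, 30.4 and 23.7).

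Among the 11 non-ATPase subunits, Psmd6 (Rpn7, chromosome 14, 14112174 to 14120984, minus strand) had the smallest p. It was counted at 27.8, 28.9 and 34.4 CPM in the WT corn oil libraries, 48.0, 33.2 and 41.5 in the WT CITCO libraries, 51.8, 43.4 and 58.4 in the hCAR/hPXR libraries and 33.0, 44.3 and 32.0 in the Car KO/hPXR libraries. The hCAR/hPXR libraries lay above all corn oil libraries and overlapped the other CITCO groups. The log2 fold change of hCAR/hPXR was 0.75 (SE 0.21, adjusted p = 0.129) against corn oil and 0.49 (SE 0.22, adjusted p = 0.430) against Car KO/hPXR, and neither passed by edgeR. Psmd3 (Rpn3) was counted at 192, 212 and 210.1 CPM in the WT corn oil libraries, 158, 141 and 129 in the WT CITCO libraries, 148, 196 and 123 in the hCAR/hPXR libraries and 149, 147 and 223 in the Car KO/hPXR libraries, and Psmd4 (Rpn10) at 296, 323 and 348 CPM in the WT corn oil libraries, 261, 214 and 210.4 in the WT CITCO libraries, 318, 344 and 233 in the hCAR/hPXR libraries and 239, 351 and 406 in the Car KO/hPXR libraries. For both, the WT CITCO libraries lay below the corn oil libraries and the humanised groups spread across them. The class summed to 1327, 1391 and 1351 CPM in WT corn oil, 1317, 1048 and 1269.9 in WT CITCO, 1365, 1450.4 and 1209 in hCAR/hPXR and 1223, 1326 and 1376 in Car KO/hPXR. The WT CITCO sums lay below the corn oil sums, replicate 1 narrowly. The lowest sum, in WT CITCO replicate 2, came with the lowest level of Psmd11 (Rpn6), at 112 CPM against 197 and 257 in its replicates. Psmd3, Psmd4 and Psmd11 were named after their values were seen.

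Assembly chaperones help to build the particles and are not part of them. Of the regulatory particle chaperones, Psmd9 (p27) had the smallest p and was counted at 51.1, 52.2 and 40.5 CPM in the WT corn oil libraries, 33.1, 38.0 and 42.9 in the WT CITCO libraries, 46.6, 46.3 and 48.4 in the hCAR/hPXR libraries and 47.0, 30.9 and 59.1 in the Car KO/hPXR libraries. Its hCAR/hPXR libraries lay above its WT CITCO libraries, with a log2 fold change of 0.31 (SE 0.22, adjusted p = 0.744), and overlapped the other groups. Of the core particle chaperones, Psmg4 had the smallest p, at a mean of 8.58 counts per library. It was counted at 4.03, 4.94 and 2.42 CPM in the WT corn oil libraries, 4.54, 2.07 and 7.04 in the WT CITCO libraries, 6.74, 8.68 and 7.51 in the hCAR/hPXR libraries and 3.18, 5.84 and 11.5 in the Car KO/hPXR libraries. The hCAR/hPXR libraries lay above the corn oil libraries, with a log2 fold change of 1.0005 (SE 0.55, adjusted p = 0.555), whose 95% interval of -0.15 to 2.15 reached past 0. At this depth the gene was too sparse to place the difference more closely.

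The activators cap the core and open its gate, with Psme1 and Psme2 forming PA28 alpha-beta, Psme3 the nuclear PA28 gamma and Psme4 PA200. Psme2b (chromosome 11, 48945354 to 48946190, minus strand) has a single exon and a sequence close to Psme2 (chromosome 14, 55587441 to 55591113, minus strand), sharing 68.7% of its 50-base words with it. Expected counts of Psme2b were 16.1 in WT CITCO replicate 1, 78.5 in hCAR/hPXR replicate 1 and 12.1 in Car KO/hPXR replicate 1, and 0 in the other 9 libraries. Psme2 in the same 3 libraries had expected counts of 115, 136 and 164, and the sums came out whole. Psme2b therefore took 12.3%, 36.5% and 6.90% of the joint count, and a fold change for it has no meaning apart from how reads were divided. No call rests on Psme2b by the filtered edgeR test, but it was called without the expression filter in 5 comparisons and with the replicate block in 1. Summed, both genes had 89.6 ± 17.7 CPM in WT corn oil, 102 ± 16.7 in WT CITCO, 117 ± 12.1 in hCAR/hPXR and 95.5 ± 14.1 in Car KO/hPXR (SD, n = 3 each). The ranges of the sum overlapped, and with the counts summed no proteasome gene was called by edgeR in any comparison. That alternative was added after the data were seen.

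**Figure D5:**
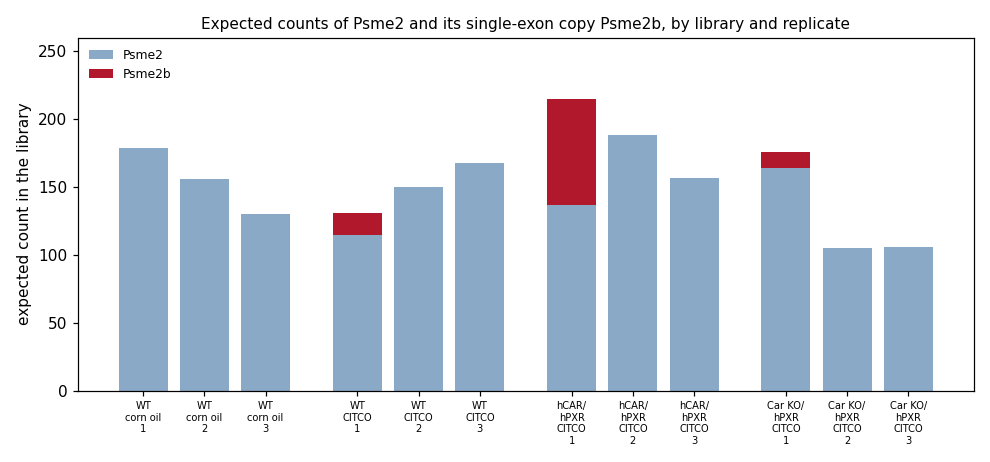
Expected counts of Psme2 (blue) and Psme2b (red), stacked, in each of 12 libraries, with bars from 0. Psme2b has counts in replicate 1 of the 3 CITCO groups only, up to 78.5 in hCAR/hPXR.

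Counts that were not whole in at least 1 library, the mark of divided reads, were found for 13 of the 50 genes. For 5 of them a pseudogene held the other part of the read in nearly all such libraries, namely Gm6542 for Psma4, Gm12989 for Psma5, Gm4950 for Psmb3, Gm5422 for Psmd2 and Gm7776 for Psme1. The pseudogenes held few counts, at most 8 in a library, so the levels of the 5 genes shift little with the way reads were divided. Overlap with a gene on the other strand was found at the exons of 12 of the 50 genes, among them Psmb9 with the transporter gene Tap1 over 212 bases. Whether counting used the strand is not given in the sources used here. Fractions of Psmb7 were completed by its opposite-strand partner Nek6 in 11 libraries, and those of Psmc3ip by its opposite-strand partner Mlx in 4. Neither pair shared a 50-base word, so reads of these pairs appear to have been divided between strands. Reads over such overlaps are therefore uncertain between the partners.

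The 50 genes lie on 16 chromosomes, with 10 on chromosome 11, 6 on chromosome 14 and 6 on chromosome 2. Neighbouring members were few. Psmb8 and Psmb9 lie 9956 bases apart on chromosome 17, Psme1 and Psme2 5911 bases apart on chromosome 14, and Psmb5 and Psmb11 3410 bases apart on chromosome 14. The neighbours Psmb5 and Psmb11 were at opposite ends of the range, with means of 319 and 0.241 CPM.

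Genes that act around the proteasome are described from 4 lists. Among other proteasome parts and maturation factors, 9 genes were tested over the 4 groups, 0 were called by edgeR (against 1.42% of all genes) and 1 had an unadjusted p under 0.05 (against 11.6%), while DESeq2 called 1 and limma 0. The gene, described as that with the smallest p of its list, was Pomp, which drives maturation of the core, at 297, 333 and 292 CPM in the WT corn oil libraries, 265, 212 and 229 in the WT CITCO libraries, 309, 344 and 292 in the hCAR/hPXR libraries and 342, 326 and 314 in the Car KO/hPXR libraries. Its WT CITCO libraries lay below the other 9, as for Psmc1, with a log2 fold change of -0.38 (SE 0.14, adjusted p = 0.376) against corn oil and adjusted p = 0.284 over the 4 groups. DESeq2 called Pomp over the 4 groups (adjusted p = 0.0483, range over alternatives up to 0.612) and also in Car KO/hPXR against WT CITCO. In the NRF1 route 8 genes were tested, 0 were called by edgeR and 3 passed unadjusted, against the same 1.42% and 11.6% of all genes, while DESeq2 called 1 (Syvn1) and limma 0. Syvn1, a ubiquitin ligase of the endoplasmic reticulum, had the smallest p there and was counted at 51.5, 62.8 and 48.9 CPM in the WT corn oil libraries, 127, 126 and 43.6 in the WT CITCO libraries, 78.2, 165 and 148 in the hCAR/hPXR libraries and 64.2, 72.6 and 52.6 in the Car KO/hPXR libraries. The hCAR/hPXR libraries lay above the corn oil and Car KO/hPXR libraries. WT CITCO replicate 3 lay far below its replicates, and the adjusted p of 0.1201 became 0.00875 without it. DESeq2 gave an adjusted p of 0.0175, and the alternatives ran from 4.86e-08 (no filter) to 0.299 (without hCAR/hPXR replicate 2). DESeq2 also called Syvn1 in hCAR/hPXR against corn oil. Nfe2l1 itself was counted at 39.4, 35.3 and 35.6 CPM in the WT corn oil libraries, 44.8, 33.9 and 31.0 in the WT CITCO libraries, 33.7, 30.7 and 24.2 in the hCAR/hPXR libraries and 29.9, 45.1 and 22.2 in the Car KO/hPXR libraries. Its hCAR/hPXR libraries lay below the corn oil libraries, at a log2 fold change of -0.31 (SE 0.25, adjusted p = 0.737), and overlapped the others. Nfe2l1 was named for its role.

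The lists of shuttles and of p97 cofactors held 0 calls over the 4 groups by edgeR, by DESeq2 and by limma, where edgeR called 1.42% of all genes and 11.6% passed unadjusted. Of 7 shuttle genes tested, 0 had an unadjusted p under 0.05 over the 4 groups by any of the 3 tools. The smallest p was that of Rad23b, a ubiquitin receptor that delivers substrates, at 244, 255 and 305 CPM in the WT corn oil libraries, 207, 214 and 203 in the WT CITCO libraries, 207, 261 and 209 in the hCAR/hPXR libraries and 252, 225 and 259 in the Car KO/hPXR libraries. Its WT CITCO libraries lay below the corn oil and Car KO/hPXR libraries, with adjusted p = 0.562 over the 4 groups. In WT CITCO against corn oil Rad23b had an unadjusted p of 0.0244 by edgeR (adjusted p = 0.455), where 9.13% of all genes passed unadjusted. Of 8 cofactors of the unfoldase p97, 0 passed unadjusted over the 4 groups by any of the 3 tools. Ubxn4 had the smallest p at 60.9, 70.5 and 65.8 CPM in the WT corn oil libraries, 88.2, 78.8 and 58.4 in the WT CITCO libraries, 91.7, 75.2 and 108 in the hCAR/hPXR libraries and 64.8, 76.8 and 47.6 in the Car KO/hPXR libraries, with its hCAR/hPXR libraries above the corn oil libraries and adjusted p = 0.488. By edgeR 1 cofactor passed unadjusted in WT CITCO against corn oil, where 9.13% of all genes did. In hCAR/hPXR, 2 passed against Car KO/hPXR (10.6% of all genes) and 2 against corn oil (10.9%). Tap1, the neighbour of Psmb9, was counted at 21.9, 13.4 and 30.8 CPM in the WT corn oil libraries, 25.9, 13.8 and 16.2 in the WT CITCO libraries, 22.8, 16.8 and 15.01 in the hCAR/hPXR libraries and 29.2, 13.4 and 23.8 in the Car KO/hPXR libraries, with overlap between all groups. Tap1 was named for its place beside Psmb9.

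Immunoproteasome genes are expressed by immune cells too, and in bulk liver fewer cells of a type and less RNA per cell cannot be told apart. The 12 Kupffer cell and macrophage markers, all tested and led by Cd5l (mean 177 CPM), summed to 483, 467 and 384 CPM in WT corn oil, 656, 635 and 475 in WT CITCO, 719, 632 and 596 in hCAR/hPXR and 536, 498 and 539 in Car KO/hPXR. The sum was lower in the 3 corn oil libraries than in 8 of the 9 CITCO libraries, the exception being WT CITCO replicate 3. Of these markers 1 was called, Marco in hCAR/hPXR against corn oil at a log2 fold change of 1.82 (SE 0.38, adjusted p = 0.0202), at 13.9, 4.23 and 8.45 CPM in corn oil and 33.2, 20.8 and 45.9 in hCAR/hPXR. Marco was at 26.6, 21.4 and 14.1 CPM in WT CITCO, above all 3 corn oil libraries, and 14.6, 13.4 and 19.7 in Car KO/hPXR, overlapping them. In hCAR/hPXR against corn oil, where edgeR called 0.989% of all genes, Marco was called by limma too but not by DESeq2, which called Cd5l. The call of Marco was lost without WT corn oil replicate 2 or 3 (adjusted p = 0.1198 and 0.110) and without hCAR/hPXR replicate 1 or 3 (0.0837 and 0.110). The 6 general leukocyte markers, 3 of them tested and led by Laptm5, summed to 52.0, 38.8 and 48.9 CPM in WT corn oil, 77.8, 47.7 and 61.2 in WT CITCO, 76.7, 65.4 and 80.9 in hCAR/hPXR and 52.1, 37.6 and 39.4 in Car KO/hPXR. The 4 MHC class II genes, led by H2-Eb1, summed to 57.3, 69.1 and 56.8 CPM in WT corn oil, 77.2, 54.6 and 130.2 in WT CITCO, 55.4, 38.8 and 54.2 in hCAR/hPXR and 94.7, 79.3 and 92.8 in Car KO/hPXR. The 8 T, NK and B cell markers found, 1 of them tested and led by Ighm, summed to 7.61, 14.1 and 13.3 CPM in WT corn oil, 9.73, 7.61 and 15.5 in WT CITCO, 9.33, 9.26 and 15.8 in hCAR/hPXR and 17.8, 13.4 and 15.6 in Car KO/hPXR. Psmb10 and the macrophage sum were both lowest in the corn oil group on average. The other immune sums were not: leukocytes were lowest in Car KO/hPXR (mean 43.0 CPM), MHC class II in hCAR/hPXR (49.5) and T, NK and B cells in WT CITCO (10.9). The macrophage sum was highest in hCAR/hPXR (649). Among the CITCO groups Psmb10 was lowest there, at 29.9 CPM against 34.9 in WT and 34.5 in Car KO/hPXR. The part of these cells in the level of Psmb10 was not tested.

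Markers of the other liver cells were read in the same way. The 6 sinusoidal endothelial markers, all tested and led by Kdr, summed to 269, 251 and 245 CPM in WT corn oil, 229, 255 and 253 in WT CITCO, 198, 230.3 and 221 in hCAR/hPXR and 240.2, 249 and 276 in Car KO/hPXR, and the 5 stellate cell markers, 4 tested and led by Dcn, to 221, 226 and 235 CPM in WT corn oil, 245, 233 and 343 in WT CITCO, 269.9, 239.5 and 264 in hCAR/hPXR and 167, 215 and 247 in Car KO/hPXR. The 5 cholangiocyte markers, 1 tested and led by Sox9, summed to 21.9, 27.5 and 27.2 CPM in WT corn oil, 21.4, 14.5 and 12.7 in WT CITCO, 18.1, 16.2 and 20.02 in hCAR/hPXR and 24.8, 19.2 and 23.8 in Car KO/hPXR, with Krt19, Krt7 and Epcam at or near 0. The 5 red blood cell markers, all tested and led by Hba-a2, summed to 3882, 3026 and 2298 CPM in WT corn oil, 3024, 3985 and 1987 in WT CITCO, 1995, 1859 and 2192 in hCAR/hPXR and 3424, 2614 and 2138 in Car KO/hPXR. Of these lists 1 gene was called, Alas2, the haem synthesis enzyme of red cell precursors, which fell in hCAR/hPXR against corn oil, at a log2 fold change of -1.01 (SE 0.22, adjusted p = 0.0264), from 228, 279 and 208 CPM to 99.0, 163 and 91.7. Its WT CITCO libraries (168, 187 and 161 CPM) and its Car KO/hPXR libraries (124, 108 and 176) also lay below all 3 corn oil libraries, though edgeR did not call those differences (adjusted p = 0.519 and 0.399). In hCAR/hPXR against corn oil, where edgeR called 0.989% of all genes, DESeq2 and limma called Alas2 too, as both did over the 4 groups. Without any 1 of the 3 corn oil libraries the adjusted p of Alas2 by edgeR in hCAR/hPXR against corn oil was 0.0632, 0.156 and 0.0570. Without hCAR/hPXR replicates 1 and 3 it was 0.159 and 0.144. None of the marker lists was at 0 in all libraries.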

How the data were processed

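The data are gene-level values of 12 liver libraries (Lexogen QuantSeq, 3' ends), 3 mice in each of 4 groups, assigned by genotype and treatment. Expected counts, not normalised, are those the authors obtained from RSEM after STAR alignment, and the log2-like values deposited beside them come from DESeq2's variance-stabilising transformation. The submitters' processing notes name FastQC 11.7, Trimmomatic 36, STAR 2.5.2, RSEM 1.3, DESeq2, R 4.10 and the build GRCm38. Reads with more than 1 possible source are apportioned by RSEM. Of the values above 0, 9.34% were not whole, so near-identical copies can exchange counts.

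Here each expected count was rounded to an integer, and genes were tested in R 4.3.3 with edgeR 4.0.16 (filterByExpr, TMM, quasi-likelihood F test, 1 mean per group, all 12 libraries). P-values were adjusted by Benjamini and Hochberg's method over the 8594 genes tested, and a gene was called at an adjusted p under 0.05. The SE of a log2 fold change was taken from the fold change and its F statistic, and its 95% interval from the t quantile. Alternatives were DESeq2 1.42.0, limma 3.58.1 on the deposited log2-like values, RLE and upper-quartile scaling, no filter, a mean count of at least 30, a replicate block, fits of the 2 groups compared, leaving out each library, and (added after the data were seen) summing genes that share reads.

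Pairs of libraries of 1 group differed by more than sampling noise, with a chi-square per degree of freedom of 4.90 to 20.7, so none was counted as a copy. Values in every library are given for Psmb5 to Psmb10, for genes with nearly no counts, for called genes, and for the gene of each class or list with the smallest p over the 4 groups, and others are named as chosen after their values were seen. Members and lists were chosen with earlier results of these data known. Gene positions were read from GENCODE M21 (GRCm38), whose release differs from the annotation of the authors, and upstream sequences are from RefSeq. The planned comparison of protein sequences was not run.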

Additional observations from a re-analysis of the deposited data

How the results depend on the processing

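The count of proteasome genes called was 0 in all 7 comparisons by edgeR, and it remained 0 with RLE or upper-quartile scaling, the stricter filter, limma, only the 2 groups compared and copies summed, and in each of the 12 fits that leave out 1 library (lowest 0, highest 0). DESeq2 called 1 (Psmc1) over the 4 groups, in Car KO/hPXR against WT CITCO and in WT CITCO against corn oil. Without a filter 1 was called (Psme2b) over the 4 groups, in WT CITCO, hCAR/hPXR and Car KO/hPXR against corn oil, and in hCAR/hPXR against Car KO/hPXR. The replicate block called 1 (Psme2b, adjusted p = 0.0200 by edgeR) in hCAR/hPXR against corn oil and 0 in the other 6 comparisons. The main test did not treat replicate numbers as a pairing. Libraries of the same number had correlations of their deviations between -0.0631 and 0.0736 over 18 pairs (median 0.0290), 0 of them over 0.1. Over 36 pairs of different numbers the median was -0.00964 and 1 was over 0.1. With 3 libraries per group these values cannot exclude that libraries of the same number were handled together. Psme2b has counts in replicate 1 of 3 groups only. The cause of the Psmc1 call by DESeq2 was not tested. Over all genes the count of calls moved more. Over the 4 groups it was 122 by edgeR, 225 by DESeq2 and 540 without a filter; for the pairs it was 35, 74 and 184 (hCAR/hPXR against WT CITCO), 22, 75 and 227 (Car KO/hPXR against WT CITCO), 20, 48 and 179 (WT CITCO against corn oil), 50, 120 and 233 (hCAR/hPXR against Car KO/hPXR), 85, 154 and 261 (hCAR/hPXR against corn oil) and 4, 12 and 95 (Car KO/hPXR against corn oil) in that order. Fits of only the 2 groups gave 40 for Car KO/hPXR against WT CITCO, and limma gave 33. Leaving out 1 library gave 60 to 160 over the 4 groups and, for the pairs in the same order, 17 to 36, 5 to 58, 6 to 54, 10 to 86, 25 to 99 and 3 to 6. Psmb8 in WT CITCO against corn oil, 0.03 on the log2 scale, became -0.00521 when WT corn oil replicate 2 was left out, and 0.104 when replicate 1 was, all near 0. The medians of the 47 genes moved by less than the replicate spread, though that of Car KO/hPXR against WT CITCO went from 0.04 to -0.05 without WT CITCO replicate 2 and that of WT CITCO against corn oil from -0.01 to 0.06, and that of hCAR/hPXR against Car KO/hPXR from 0.0180 to -0.00219 by limma. Catalytic pair ratios differed on the deposited log2-like values in 32 of 36 cases, which compress low counts. With a mean count under 10, Psmg4 is at the limit of what this depth can show.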
